A study of Mus musculus with 6 samples.

Results

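The genes described here form the erythroid and haem synthesis programme: the transcription factors that drive red cell formation, the early surface and iron uptake genes, the haem enzymes, and the proteins of the red cell membrane. Members were chosen by name from a list of 30 genes, and 28 of them had a probe set assigned to that gene alone on the array, out of 22180 genes in all. Alas2, the erythroid enzyme that commits glycine to haem, and Ahsp, the chaperone of free alpha globin, are not analysed here. Where a gene had more than 1 probe set, the brightest by the mean of all 6 arrays was taken.

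Expression was measured in LSK cells of 8-week-old male mice on 6 Affymetrix Mouse Gene 2.0 ST arrays, 3 per genotype. LSK cells lack mature lineage markers, carry Sca-1 and have high c-Kit, and this fraction of the marrow includes blood stem cells and early multipotent progenitors. The CTCFcKO mice carried a conditional Ctcf allele deleted by a tamoxifen-inducible recombinase, and the mice they were set against were labelled WT. Tamoxifen was injected at 2 mg a day for 3 days in mice of either genotype, and the marrow was sorted 24 hours after the last dose. The sources used here do not give the strain, the promoter behind the recombinase, the deleted exons or the number of mice behind each array. They also do not settle whether the WT mice carried CreER. Every array is labelled a biological replicate.

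Red cell formation starts when a multipotent progenitor raises GATA1, a zinc finger factor that binds erythroid promoters and enhancers, and then KLF1, which binds CACCC boxes in globin, membrane and haem genes. Committed progenitors take up transferrin iron, build haem through a chain of enzymes split between mitochondrion and cytosol, and assemble a spectrin skeleton tied to band 3 by ankyrin. The full programme belongs to cells beyond the LSK stage, which the lineage and Sca-1 gates leave out. Low levels of its early genes are known in stem cells and multipotent progenitors. Some members, such as Tfrc and Car2, are also made outside the erythroid lineage. CTCF binds insulators and loop anchors, among them sites that flank the globin loci.

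Ctcf stood at a log2 level of 7.74 ± 0.14 in CTCFcKO and 8.56 ± 0.19 in WT (SD, n = 3 each), a difference of -0.82 with a limma adjusted p of 0.104. That put CTCFcKO at 56.7% of WT, so Ctcf signal was lower but not lost. Kit, a gate marker, had log2 levels of 10.13, 10.12 and 10.21 on the CTCFcKO arrays, against 10.26, 10.65 and 10.22 on the WT arrays, a narrow gap without overlap (limma adjusted p = 0.727). Ly6a, which encodes Sca-1, is not analysed here. The 6 measured genes of the lineage gate list, which are Cd3e, Cd4, Cd8a, Cd5, Itgam and Ly6g, differed by -0.23 to 0.25 with none called. Array medians over all probe sets lay between 5.99 and 6.07. Signals carry no detection call, so a level shows neither presence nor absence, and levels of different probe sets are not compared as amounts.

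No erythroid or haem gene passed the test in the CTCFcKO arrays against the WT arrays. The call rule was a limma p under 0.05 after Benjamini-Hochberg adjustment over all genes, which 0.0721% of all genes met and 0 of 28 members met. The lowest adjusted p among members was 0.161, for Tfr2, and the highest 0.973, for Ank1. At an unadjusted p under 0.05, 2 of 28 members were higher in CTCFcKO, which is 7.14%, where 5.03% of all genes were. On the same rule 3 members were lower, which is 10.7%, where 3.08% of all genes were. The 3 arrays of one genotype lay wholly above those of the other for 4 members that were higher in CTCFcKO, or 14.3%, against 7.96% of all genes. They did so for 3 members that were lower, or 10.7%, against 5.32% of all genes. At an unadjusted p under 0.05, 5 members were higher without WT replicate 3, and 1 was lower without CTCFcKO replicate 2 or without WT replicate 1. These counts of a few genes are a description, since the members were chosen with earlier results known.

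The members did not share a direction. Differences were positive for 18 and negative for 10 of the 28, and their median was 0.12 on the log2 scale, while 54.7% of all genes were positive with a median of 0.02. The median was -0.02 without CTCFcKO replicate 1 and -0.02 without WT replicate 2, with 13 of 28 members positive in either fit. It was 0.20 without WT replicate 3, with 21 positive. The plot of differences by gene shows the wide intervals of Car1, Rhag and Blvrb beside the narrow ones of Car2 and Cd59a.

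**Figure D1:**
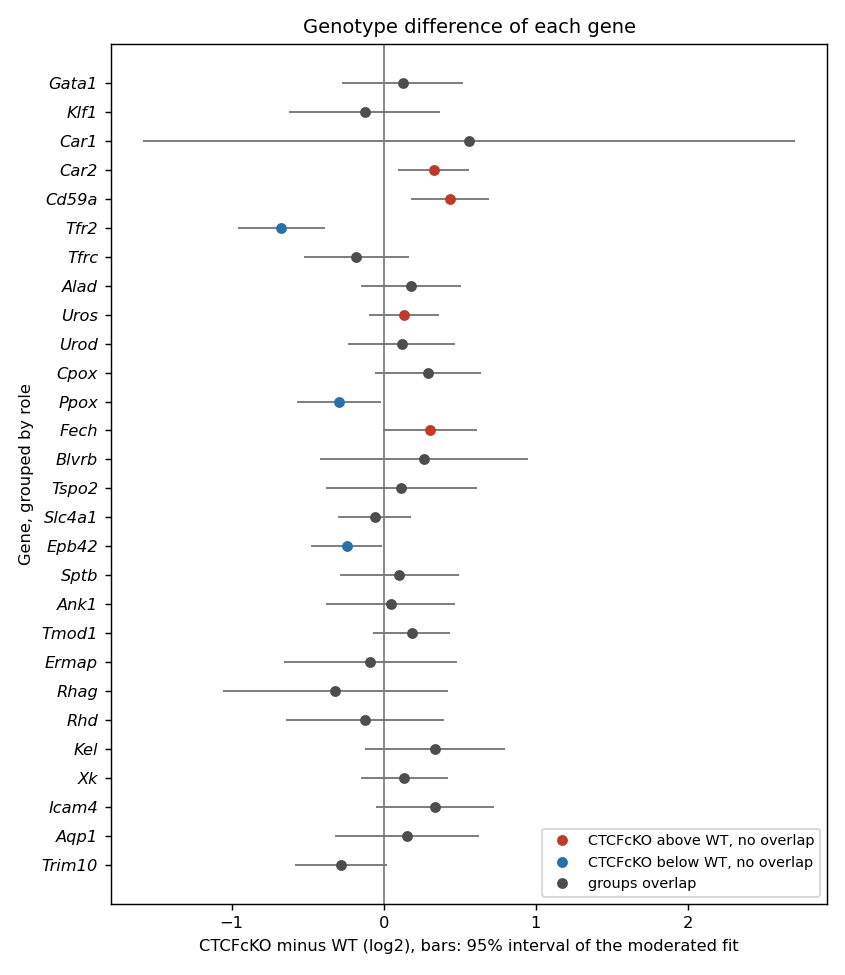
Difference of each of the 28 genes between genotypes, CTCFcKO minus WT on the log2 scale, with 95% intervals of the limma fit and genes grouped by role from top to bottom. Car2, Cd59a, Uros and Fech are coloured as higher without overlap, Tfr2, Ppox and Epb42 as lower without overlap, and the interval of Car1 runs from -1.58 to 2.70.

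The 2 master regulators showed no genotype difference that could be told from the spread between arrays. Gata1 had log2 levels of 6.74, 6.64 and 6.56 on CTCFcKO arrays 1 to 3, against 6.67, 6.11 and 6.79 on the WT arrays. Its lowest and highest values were both WT arrays. The difference was 0.12 (SE 0.18, limma adjusted p = 0.909), with a 95% interval from -0.28 to 0.52, and it was -0.08 without WT replicate 2. Klf1 had log2 levels of 6.09, 5.61 and 5.76 on the CTCFcKO arrays, against 5.86, 5.56 and 6.41 on the WT arrays. The groups overlapped here too, with WT array 3 at the top and WT array 2 at the bottom. The difference was -0.13 (SE 0.22, limma adjusted p = 0.927), with a 95% interval from -0.62 to 0.37, and it was 0.11 without WT replicate 3. These intervals allow a change of either sign, so equal levels are not shown.

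The early erythroid and iron genes held the 3 lowest adjusted p-values of the programme. Tfr2 encodes transferrin receptor 2, an iron sensor of liver and erythroid progenitors that associates with the erythropoietin receptor. Its log2 levels were 6.87, 7.10 and 6.69 on the CTCFcKO arrays, against 7.59, 7.54 and 7.55 on the WT arrays. Every CTCFcKO array lay below every WT array, and the WT arrays lay within 0.05 of each other. That put CTCFcKO at 62.8% of WT, a difference of -0.67 (SE 0.13), with a limma adjusted p of 0.161 and an exact two-sided permutation p of 0.1, the smallest that 3 arrays against 3 can give. Over all alternative settings it stayed between -0.78 and -0.57, with a limma adjusted p between 0.0949 and 0.550.

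Cd59a and Car2 lay on the other side. Cd59a encodes an anchored surface protein that shields red cells from complement. It had log2 levels of 9.23, 9.09 and 8.97 on the CTCFcKO arrays, against 8.76, 8.59 and 8.63 on the WT arrays. The difference was 0.44 (SE 0.11), or 1.35-fold, with a limma adjusted p of 0.365. Car2, a cytosolic carbonic anhydrase that is switched on early in erythroid cells and is also made in other cell types, had log2 levels of 11.57, 11.47 and 11.48 on the CTCFcKO arrays, against 11.10, 11.20 and 11.24 on the WT arrays. The groups of either gene did not overlap. The Car2 difference was 0.33 (SE 0.10), or 1.26-fold, with a limma adjusted p of 0.464. Left-out arrays and other settings kept Cd59a between 0.37 and 0.50 and Car2 between 0.27 and 0.36.

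**Figure D2:**
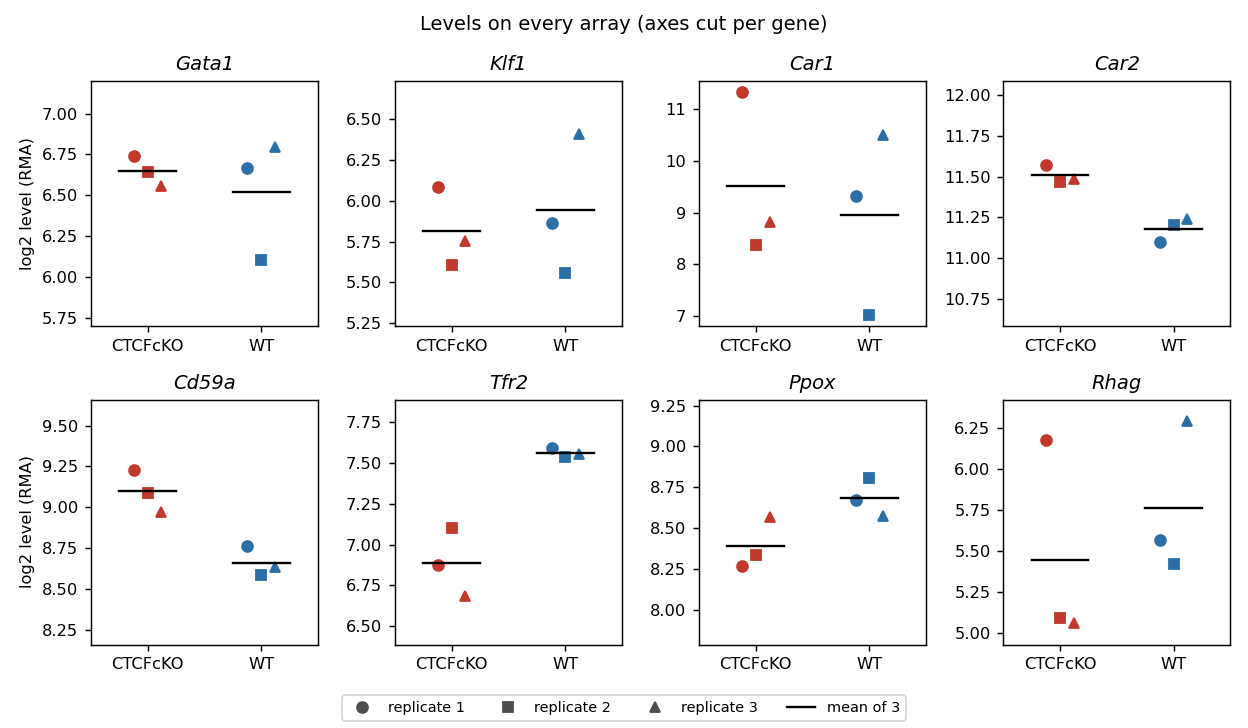
Log2 level of 8 genes on every array, CTCFcKO left and WT right in each panel, with a marker shape for each replicate number and a line at the mean of 3 arrays; the vertical axes are cut separately for each gene. Car2 and Cd59a are wholly higher and Tfr2 and Ppox wholly lower in CTCFcKO, while Gata1, Klf1, Car1 and Rhag overlap and are highest within each genotype on CTCFcKO array 1 and WT array 3.

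Tfrc, the receptor that brings transferrin iron into every dividing cell and most of all into erythroblasts, overlapped between genotypes. Its log2 levels were 7.78, 8.01 and 8.14 on the CTCFcKO arrays, against 7.90, 8.36 and 8.22 on the WT arrays. The difference was -0.18 (SE 0.15, limma adjusted p = 0.829), and it was -0.08 without CTCFcKO replicate 1 or without WT replicate 2 and -0.31 without WT replicate 1. Whether the difference of Tfr2 differs from that of Tfrc was not tested.

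The promoters of the members with an unadjusted p under 0.05, and that of Gata1, are printed next to show which letters of the erythroid and CTCF motifs lie just before these starts. They are the 250 bases before the most upstream start in a RefSeq table of build GRCm38.p6, read 5′ to 3′ on the gene's own strand, and 23 of the 28 measured members had a printable entry. Car2 is without one here. Capitals mark matches, on either strand, to AGATAA for GATA factors, to CCNCNCCC for KLF factors and to CNAGNNGGC, a short core of the CTCF motif.
Tfr2 (chr5:137569590-137569839, plus strand): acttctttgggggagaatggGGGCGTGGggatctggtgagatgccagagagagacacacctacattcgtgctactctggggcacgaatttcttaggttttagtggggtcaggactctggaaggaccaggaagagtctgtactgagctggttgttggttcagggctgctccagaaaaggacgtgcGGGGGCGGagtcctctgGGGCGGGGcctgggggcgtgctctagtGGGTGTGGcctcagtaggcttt
Cd59a (chr2:104095551-104095800, plus strand): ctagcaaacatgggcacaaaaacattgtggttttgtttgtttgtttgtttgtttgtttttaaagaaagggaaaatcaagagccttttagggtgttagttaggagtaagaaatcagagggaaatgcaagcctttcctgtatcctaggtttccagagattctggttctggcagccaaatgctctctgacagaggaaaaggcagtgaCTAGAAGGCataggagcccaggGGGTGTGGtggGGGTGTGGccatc
Ppox (chr1:171281187-171281436, minus strand): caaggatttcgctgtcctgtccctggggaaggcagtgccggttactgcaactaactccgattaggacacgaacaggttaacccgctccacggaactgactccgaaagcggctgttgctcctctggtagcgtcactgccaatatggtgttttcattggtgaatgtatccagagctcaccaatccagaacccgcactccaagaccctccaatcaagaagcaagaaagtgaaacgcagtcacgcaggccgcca
Epb42 (chr2:121036878-121037127, minus strand): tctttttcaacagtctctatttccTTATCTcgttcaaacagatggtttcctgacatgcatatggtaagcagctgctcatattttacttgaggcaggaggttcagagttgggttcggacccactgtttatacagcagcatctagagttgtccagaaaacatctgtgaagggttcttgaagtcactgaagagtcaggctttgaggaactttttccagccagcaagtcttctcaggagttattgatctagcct
Gata1 (chrX:7967911-7968160, minus strand): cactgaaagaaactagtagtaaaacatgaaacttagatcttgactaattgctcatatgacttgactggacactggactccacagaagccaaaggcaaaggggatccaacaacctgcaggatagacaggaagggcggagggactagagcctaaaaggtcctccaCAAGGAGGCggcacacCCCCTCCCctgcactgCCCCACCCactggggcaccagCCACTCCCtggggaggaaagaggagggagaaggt

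The Tfr2 window held 4 KLF-type matches, at -230, -66, -49 and -22 counted to the start, and no other. The Cd59a window held 2 KLF-type matches, from -24 and -13, and a CTCF-core match from -46 to -38. In the Gata1 window 3 KLF-type matches began at -71, -55 and -34, with a CTCF-core match from -87 to -79. Epb42 had a single GATA match from -226 to -221, and Ppox had none of the 3 motifs. Over the 23 member promoters AGATAA was found in 5, or 21.7%, against 9.99% of the 32851 promoters of the table. CCNCNCCC was found in 13, or 56.5%, against 45.9%, and CNAGNNGGC in 6, or 26.1%, against 17.1%. The shares of the table count every start, also where a gene has several, while each member is counted by its most upstream start. Matches of different motifs overlapped in 0 member windows, while neighbouring KLF-type matches can overlap each other. A match shows letters in a window and not binding.

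Of the 8 measured genes of haem synthesis and handling 7 had positive differences and Ppox a negative one, their median was 0.16 and none was called. Over all genes 54.7% were positive, and 3 of the 7, Urod, Blvrb and Tspo2, changed sign when 1 array was left out. Ppox, the mitochondrial enzyme that oxidises protoporphyrinogen, had log2 levels of 8.27, 8.33 and 8.57 on the CTCFcKO arrays, against 8.67, 8.80 and 8.58 on the WT arrays. The groups did not overlap, but CTCFcKO array 3 and WT array 3 nearly met. The difference was -0.29 (SE 0.12, limma adjusted p = 0.592), and it stayed between -0.38 and -0.23 over the alternatives.

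Fech, ferrochelatase, acts directly after Ppox and puts iron into the ring. It had log2 levels of 8.35, 7.99 and 8.10 on the CTCFcKO arrays, against 7.94, 7.64 and 7.94 on the WT arrays, again without overlap. The difference was 0.30 (SE 0.14, limma adjusted p = 0.620). Uros, which closes the ring of uroporphyrinogen, had log2 levels of 6.88, 6.80 and 6.83 on the CTCFcKO arrays, against 6.68, 6.78 and 6.65 on the WT arrays. Its difference of 0.13 (SE 0.10, limma adjusted p = 0.800) was small, although the groups did not overlap.

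The other 5 measured genes of this group overlapped between genotypes. Cpox, which makes protoporphyrinogen from coproporphyrinogen, differed by 0.29 (SE 0.15) and Alad, which makes porphobilinogen, by 0.18 (SE 0.14). Urod, the decarboxylase of the cytosolic steps, differed by 0.12 (SE 0.15). Blvrb, a flavin and biliverdin reductase abundant in red cells, differed by 0.27 (SE 0.30), with its highest value, 8.25, on CTCFcKO array 1 and its lowest, 6.80, on WT array 2. Tspo2, an erythroid membrane protein tied to cholesterol and porphyrin handling, differed by 0.12 (SE 0.22) and reached 6.40 on CTCFcKO array 1, against 5.42 to 5.86 on the other 5 arrays. Limma adjusted p-values of these 5 lay between 0.684 and 0.932. Without CTCFcKO replicate 1 the differences of Blvrb and Tspo2 were -0.05 and -0.14, and without WT replicate 2 those of Urod and Blvrb were -0.03 and -0.01.

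Of the 5 membrane skeleton genes 3 had positive and 2 negative differences, with a median of 0.05 and none called. None of the 5 had a mean level above the median of gene means, 6.29. In all, 16 of the 28 members did, and 3 of the 8 surface and blood group genes. These counts rank signals and do not show how much RNA of a gene was present. Epb42, protein 4.2, which ties the band 3 complex to the skeleton, had log2 levels of 5.17, 5.15 and 5.08 on the CTCFcKO arrays, against 5.31, 5.35 and 5.47 on the WT arrays. The groups did not overlap, with a difference of -0.24 (SE 0.10, limma adjusted p = 0.596) that stayed between -0.30 and -0.19 over the alternatives. Slc4a1, band 3, the anion exchanger, differed by -0.06 (SE 0.11), and its 6 values lay within 0.21 of each other. Tmod1, the cap of the short actin filaments, differed by 0.18 (SE 0.11) and Sptb, beta spectrin, by 0.10 (SE 0.17). Ank1, which links spectrin to band 3, differed by 0.05 (SE 0.19) on its brighter probe set and by -0.04 on a dimmer one. Limma adjusted p-values of these 4 lay between 0.737 and 0.973, and Ank1 changed sign with array weights and with centring on the brighter genes.

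The 8 surface and blood group genes overlapped between genotypes, 4 of them positive and 4 negative, with a median of 0.02. Most genes of the array overlapped too, since 7.96% were higher and 5.32% lower without overlap. Kel, the Kell endopeptidase, differed by 0.34 (SE 0.20) and Icam4, an adhesion protein of erythroblasts, by 0.34 (SE 0.17). Trim10, a ubiquitin ligase of terminal erythroid differentiation, differed by -0.28 (SE 0.13), and Rhag, the Rh-associated ammonium channel, by -0.32 (SE 0.33). Aqp1, the water channel, differed by 0.15 (SE 0.21), Xk, the partner of Kell, by 0.14 (SE 0.12), Rhd, the Rh antigen carrier, by -0.12 (SE 0.23) and Ermap, an erythroblast membrane protein, by -0.09 (SE 0.25). All 8 had limma adjusted p-values between 0.638 and 0.958. Single arrays moved several of these values. Rhag was at -0.69 without CTCFcKO replicate 1 and -0.05 without WT replicate 3. Kel was at 0.13 without CTCFcKO replicate 1, and Icam4 at 0.15 without WT replicate 2.

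Some members varied widely between arrays of the same genotype. Car1, the carbonic anhydrase that is abundant in red cells, had log2 levels of 11.34, 8.38 and 8.81 on the CTCFcKO arrays, against 9.32, 7.02 and 10.51 on the WT arrays. It was singled out after its values were seen. The highest and lowest arrays were 7.75-fold apart within CTCFcKO and 11.2-fold apart within WT. Its pooled SD inside genotypes, 1.69 on the log2 scale, ranked 8 among the 22180 genes from the largest down. The genotype difference of 0.56 (SE 0.94, limma adjusted p = 0.926) had a 95% interval from -1.58 to 2.70. It was -0.35 without CTCFcKO replicate 1 and -0.40 without WT replicate 2, and 1.34 without WT replicate 3.

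**Figure D3:**
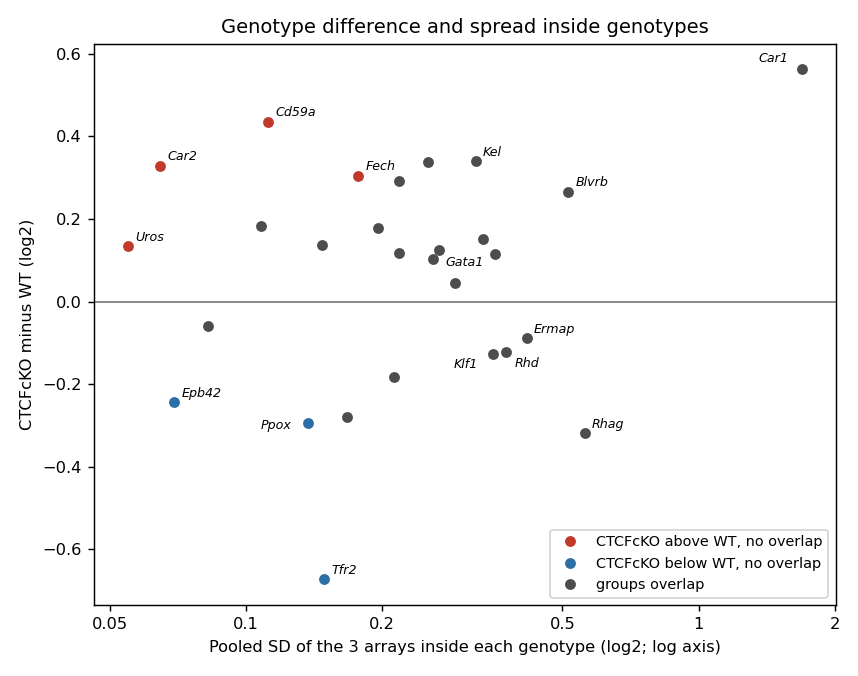
Genotype difference of each of the 28 genes (vertical axis, CTCFcKO minus WT, log2) against its pooled SD between the 3 arrays inside each genotype (horizontal log axis, log2 units). The 7 genes without overlap all have an SD under 0.2, while Car1 at 1.69, Rhag at 0.56, Blvrb at 0.51 and Ermap at 0.42 vary most inside genotypes.

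Several members had the same highest array within each genotype as Car1. Rhag, named here for the same reason, had log2 levels of 6.18, 5.09 and 5.06 on the CTCFcKO arrays, against 5.57, 5.42 and 6.29 on the WT arrays. CTCFcKO array 1 and WT array 3 were the highest of their own genotypes for 15 of the 28 members, or 53.6%, where this held for 11.6% of all genes. The same order was found in 12 of 22 G2/M genes, or 54.5%, and in 4 of 11 mast cell and basophil markers, or 36.4%, so it was not particular to the members. The 15 were Gata1, Klf1, Car1, Car2, Alad, Fech, Epb42, Sptb, Ank1, Ermap, Rhag, Rhd, Kel, Icam4 and Aqp1. By role they were 2 of 2 regulators, 2 of 5 early genes, 2 of 8 haem genes, 3 of 5 skeleton genes and 6 of 8 surface genes. The order takes no account of size. Car2 spanned 0.10 within CTCFcKO and 0.14 within WT, and Epb42 spanned 0.09 and 0.17. Among the 1109 genes (5% of all) with the largest pooled SD were 5 of the 28 members, and among the 2218 genes (10%) 9 members. This order was noticed in the data, and fewer cells of a type and less RNA per cell cannot be told apart in such bulk samples.

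**Figure D4:**
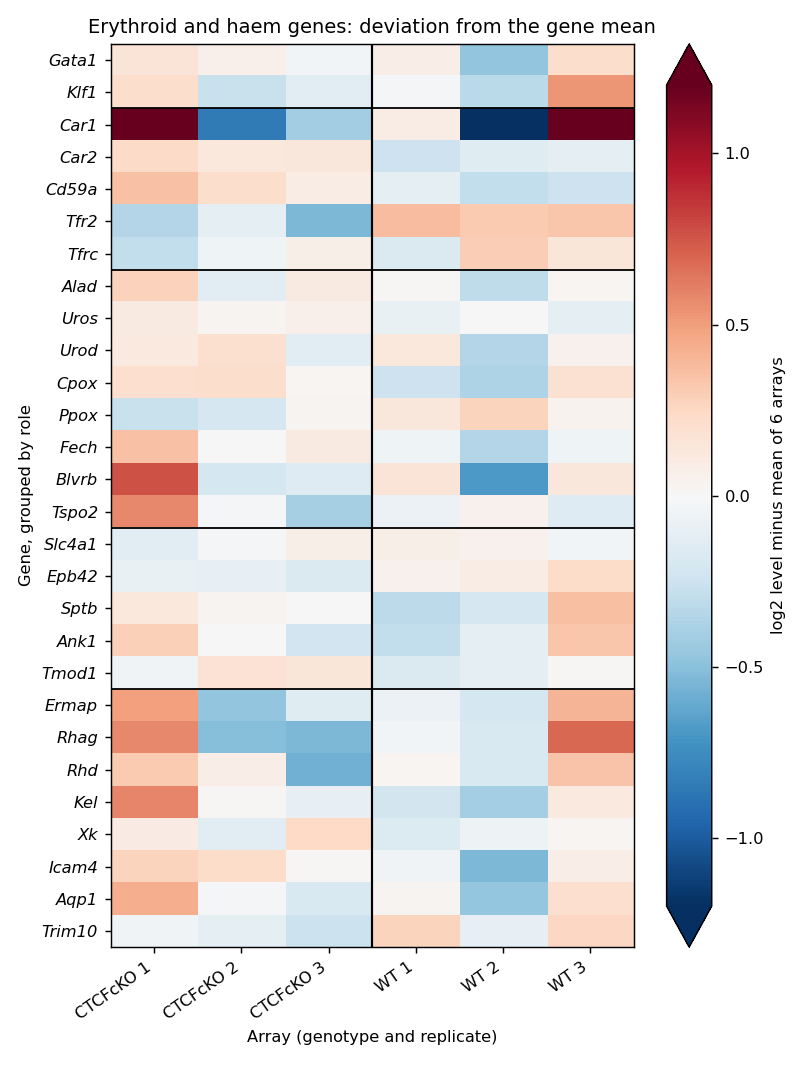
Log2 level of each of the 28 genes on each array minus that gene's mean over the 6 arrays, with the CTCFcKO arrays left of the line, the WT arrays right of it, genes grouped by role, and colours capped at 1.2 units. CTCFcKO array 1 and WT array 3 are red for most regulators and surface genes and WT array 2 is blue, whereas Car2, Cd59a and Tfr2 change colour at the genotype line.

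Other gene groups also varied between arrays. The medians given here were lowest on WT array 2, but some were negative on WT array 3. WT array 2 was the lowest of all 6 for 12 of 28 members, or 42.9%, and for 23.0% of all genes. It was the lowest for 22 of 22 measured G2/M genes, which serve mitosis, and WT array 3 was the highest WT array for all 22. The G2/M median deviation from the gene means was 0.37, 0.46 and 0.03 on the CTCFcKO arrays, against -0.18, -0.85 and 0.20 on the WT arrays. For the 28 members the median deviation was 0.22, -0.02 and -0.06 on the CTCFcKO arrays, against -0.04, -0.19 and 0.14 on the WT arrays. The 11 measured mast cell and basophil markers, a lineage that also uses GATA1, had median deviations of 0.54, 0.11 and -0.08 on the CTCFcKO arrays, against -0.01, -0.27 and -0.06 on the WT arrays. For the 12 megakaryocyte markers they were 0.23, 0.18 and -0.06 on the CTCFcKO arrays, against -0.14, -0.20 and -0.10 on the WT arrays. The part of these groups in the erythroid values was not tested.

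**Figure D5:**
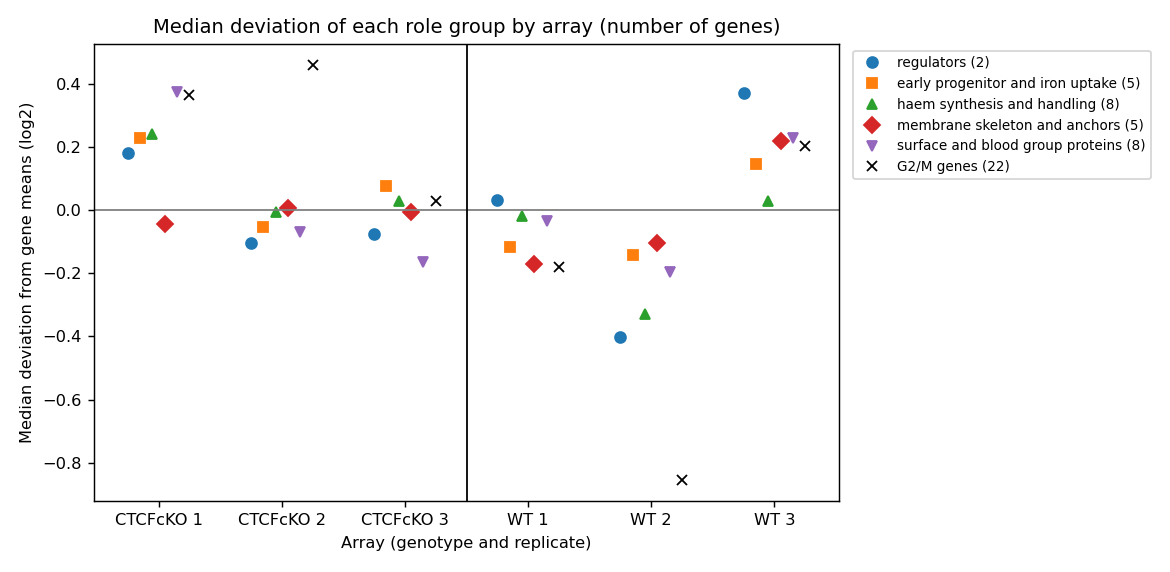
Median deviation from the gene means (log2) of the 5 role groups and of 22 G2/M genes on each array, CTCFcKO arrays left of the line and WT arrays right of it, with the number of genes in the legend. The surface group is highest on CTCFcKO array 1 (0.37), the regulators are highest on WT array 3 (0.37) and lowest on WT array 2 (-0.40), and the G2/M genes are lowest on WT array 2 (-0.85).

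The marker lists of 2 further lineages were higher and lower in CTCFcKO by their medians. The 9 neutrophil progenitor markers had median deviations of 0.37, 0.66 and 0.17 on the CTCFcKO arrays, against -0.40, -0.47 and -0.19 on the WT arrays. The 12 measured B and plasma cell markers had -0.10, 0.02 and -0.84 on the CTCFcKO arrays, against 0.79, 0.51 and -0.23 on the WT arrays. Their part in the differences of Tfr2, Cd59a and Car2 was not tested.

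Beyond the members, 67 of 80 listed erythroid and haem genes were measured, and 0 were called, with 41 positive and 26 negative differences and a median of 0.03. At an unadjusted p under 0.05, 3 were higher, or 4.48% where 5.03% of all genes were, and 2 lower, or 2.99% where 3.08% were. Groups did not overlap for 10 that were higher, or 14.9% where 7.96% of all genes did so, and for 1 that was lower, or 1.49% where 5.32% did. The array order seen among the members was found in 8 of these 67, or 11.9%, close to the 11.6% of all genes. Adult globin genes are not analysed here.

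Of the 19 measured regulators other than Gata1 and Klf1, 6 had positive differences, with a median of -0.03. None was lower without overlap, where 5.32% of all genes were. Only 1 was higher without overlap, or 5.26%, where 7.96% of all genes were. This was Gata2, the stem and progenitor factor that GATA1 displaces on chromatin. It had log2 levels of 9.29, 9.35 and 9.27 on the CTCFcKO arrays, against 8.95, 8.91 and 9.01 on the WT arrays. The groups did not overlap, with a difference of 0.34 (SE 0.10, limma adjusted p = 0.418) that stayed between 0.29 and 0.37 over the alternatives. Tal1, a partner of GATA1, differed by 0.02 (SE 0.13) and Epor, the erythropoietin receptor, by 0.08 (SE 0.12). The most negative were Klf3, a KLF-family repressor, at -0.25 (SE 0.14), and Ldb1, which bridges GATA1 complexes, at -0.18 (SE 0.12), with overlapping groups; they were named after their values were seen.

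Among 25 measured genes of haem and iron handling 21 were positive, with a median of 0.08. Alas1, the general form of the enzyme that starts haem synthesis, had log2 levels of 8.96, 9.33 and 8.52 on the CTCFcKO arrays, against 8.02, 8.10 and 8.42 on the WT arrays. The groups did not overlap, although CTCFcKO array 3 and WT array 3 were only a little apart. The difference was 0.75 (SE 0.20), or 1.69-fold, with a limma adjusted p of 0.383, and between 0.56 and 0.96 over the alternatives. Pgrmc1, a haem-binding membrane protein, and Slc11a2, the iron transporter DMT1, differed by 0.25 and 0.22 without overlap (limma adjusted p = 0.633 and 0.689). Slc25a37, mitoferrin 1, which carries iron into the mitochondrion of erythroid cells, was named after its values were seen. It had log2 levels of 8.69, 8.85 and 9.35 on the CTCFcKO arrays, against 9.43, 9.27 and 9.40 on the WT arrays. Its difference of -0.40 (SE 0.17) had overlapping groups and a limma adjusted p of 0.593.

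Of 23 other red cell genes 14 were positive, with a median of 0.08. Bcam, the Lutheran blood group protein that binds laminin, had log2 levels of 7.17, 7.40 and 7.31 on the CTCFcKO arrays, against 6.78, 6.68 and 6.93 on the WT arrays. Its difference was 0.50 (SE 0.12, limma adjusted p = 0.302) without overlap, and between 0.44 and 0.56 over the alternatives. Ypel4 differed by 0.21 and Slc2a1, the glucose transporter GLUT1, by -0.08, with groups that did not overlap. The embryonic globin genes Hba-x, Hbb-bh1 and Hbb-y differed by -0.29, -0.18 and 0.16, with limma adjusted p-values between 0.597 and 0.786.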

How the data were processed

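Each of the 6 arrays was deposited as log2 levels per probe set, and the submitters' processing notes name RMA and oligo with no version. Quantile normalization in RMA gives all arrays nearly the same distribution, and its summaries shrink differences of dim probe sets. The sources used here do not give the summary level or the genome build.

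GEO's platform annotation gave 1 symbol for 23521 of 41345 probe sets, several for 1814 and none here for 16010, and only the first kind was used. The genotype was the only term of a limma 3.58.1 fit (R 4.3.3) over 22180 genes without a filter on low values, with Benjamini-Hochberg adjustment over all genes, and intervals are 95% from the moderated fit. The test was checked on simulated data. Exact permutation tests of 3 arrays against 3 cannot go below 0.1, and the number of arrays limits precision.

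Members and lists were chosen with earlier results of these data known. Values are given on every array for Gata1 and Klf1, for members whose groups do not overlap or with an unadjusted p under 0.05, and of other lists the called genes and up to 3 per direction without overlap were named, with Epor, Tal1, the globin genes, Ctcf and Kit. Car1, Rhag, Tfrc, Klf3, Ldb1 and Slc25a37 were added after their values were seen. Alternatives were trend and robust eBayes, array weights, brighter genes only, further quantile normalization, centring, averaging over probe sets of a gene, all probe sets, a replicate block, a threshold of 0.1 and each array left out.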

Additional observations from a re-analysis of the deposited data

How the results depend on the processing

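No member and no other erythroid or haem gene was called by limma at an adjusted p under 0.05 in any alternative fit, and with a threshold of 0.1 on the reported fit 0 members were called; the adjusted p of Tfr2 ran from 0.0949 to 0.550 over the alternatives. At an unadjusted p under 0.05 the members numbered 2 higher and 3 lower. Over all genes the calls numbered 16, 25 with trend and robust settings, 0 with all probe sets, and between 0 and 8 with 1 array left out. Ctcf kept its sign, between -0.92 and -0.74 with 1 array left out. Members lower at an unadjusted p under 0.05 numbered 1 with all probe sets, 1 with the replicate number as a block, and between 1 and 2 with 1 array left out; those higher numbered between 2 and 5 with 1 array left out, the 5 without WT replicate 3. With the replicate block 0 members were called, as without it, and 7 genes over all. Deviations of same-numbered arrays correlated at 0.29, 0.016 and -0.14, which cannot settle whether they are pairs. The labels name no pairs, so the numbers were not taken as such. The fit on brighter genes covered 16 of the 28 members and 55 of the 67 other erythroid and haem genes. Over all fits that held them, 17 of 28 members kept their sign. The other 11 changed sign when 1 array was left out, with ranges from -0.083 to 0.26 for Gata1, -0.32 to 0.11 for Klf1, -0.40 to 1.34 for Car1, -0.029 to 0.21 for Urod, -0.048 to 0.44 for Blvrb, -0.14 to 0.34 for Tspo2, -0.028 to 0.31 for Sptb, -0.090 to 0.22 for Ank1, -0.36 to 0.13 for Ermap, -0.31 to 0.13 for Rhd and -0.042 to 0.29 for Aqp1. Ank1 was also at -0.019 with array weights and -0.011 with centring on the brighter genes. The cause of these sign changes was not tested.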

Other observations

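The megakaryocyte lineage shares a progenitor with red cells. Of its 12 measured markers 9 had positive differences, where 54.7% of all genes did, and the median was 0.25, with none called by limma. Groups did not overlap for 5 that were higher, which is 41.7% of the list and compares with 7.96% of all genes. They did not overlap for 1 that was lower, which is 8.33% of the list and compares with 5.32% of all genes. Itgb3, the beta chain of the fibrinogen receptor, had log2 levels of 7.70, 7.78 and 7.59 on the CTCFcKO arrays, against 7.12, 6.66 and 7.04 on the WT arrays, a difference of 0.75 (SE 0.14, limma adjusted p = 0.162). Selp, P-selectin, differed by 0.73 and Cd9, a tetraspanin, by 0.56 (limma adjusted p = 0.310 and 0.342). Gp6, the collagen receptor of platelets, differed the other way, by -0.46 (limma adjusted p = 0.423).

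Among the markers of other lineages and the G2/M genes, 1 gene was called. It was Hdc, the histamine enzyme of mast cells and basophils (difference 2.32, limma adjusted p = 0.0309). In the same list Mcpt8 differed by 1.11 and Cd200r3 by -0.23 without overlap. In the neutrophil progenitor list 6 of 9 markers had positive and 3 negative differences. The largest were those of Ms4a3, Elane and Ctsg, at 1.40, 1.21 and 1.15, none of them called. Of the G2/M genes Ccna2 and Mki67 differed by 0.76 and 0.63 without overlap and were not called. Of the B and plasma cell markers Ebf1, a B cell factor, had log2 levels of 5.50, 5.69 and 5.37 on the CTCFcKO arrays, against 7.76, 5.76 and 5.90 on the WT arrays. WT array 1 stood far above the others. The difference was -0.95 (limma adjusted p = 0.642) and -0.30 without WT replicate 1.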
